A study of Homo sapiens with 2 samples.

Results

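The genes described here are 10 components of the TGF-beta pathway: the ligands TGFB1, TGFB2 and TGFB3, the receptors TGFBR1 and TGFBR2, the signal transducers SMAD2, SMAD3 and SMAD4, the inhibitory SMAD7 and the co-repressor SKIL. They were taken by gene symbol, and all 10 were found among the 18132 genes that the array measured through probe sets with 1 symbol. Together they had 36 probe sets. The cells were HCT116, an epithelial line from a human colorectal carcinoma, grown in DMEM with serum and profiled on Affymetrix arrays. The SUN2 knockdown group held cells treated with the hairpin shSUN2-1, and the control group held cells treated with Scr, a scrambled hairpin. Each group held 1 array, so no value below has a replicate, a standard deviation between cultures or a test. SUN2 encodes an inner nuclear membrane protein that links the nucleus to the cytoskeleton.

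TGF-beta ligands are secreted in a latent form and, once released, bind the kinase receptor TGFBR2, which recruits and phosphorylates TGFBR1. TGFBR1 then phosphorylates SMAD2 and SMAD3, which join SMAD4 and enter the nucleus to activate or repress genes. SMAD7 and SKIL are themselves induced by the pathway and restrain it. In the colon the pathway slows epithelial growth, and it is often inactivated in colorectal cancer. HCT116 is deficient in mismatch repair and is known to carry frameshift mutations in a coding adenine run of TGFBR2, so the line lacks a working type II receptor and responds poorly to added ligand. The arrays measured transcript and cannot show that defect.

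SMAD7 and SKIL are direct SMAD targets, so the DNA before their starts is printed as a place where SMADs could bind. That of SMAD3, the member with the highest difference, is given beside them. The 250 bases before the outermost start of each gene are taken from RefSeq on GRCh38.p14, 5′ to 3′ on the gene's strand. Capitals mark CAGAC, the short SMAD-binding motif, or its reverse complement GTCTG.
SMAD3 (chr15:67065352-67065601, plus strand): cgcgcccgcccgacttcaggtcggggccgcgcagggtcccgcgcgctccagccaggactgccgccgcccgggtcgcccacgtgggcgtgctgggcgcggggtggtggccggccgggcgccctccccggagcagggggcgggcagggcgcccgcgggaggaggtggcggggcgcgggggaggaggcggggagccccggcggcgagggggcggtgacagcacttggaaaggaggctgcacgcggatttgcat
SMAD7 (chr18:48950966-48951215, minus strand): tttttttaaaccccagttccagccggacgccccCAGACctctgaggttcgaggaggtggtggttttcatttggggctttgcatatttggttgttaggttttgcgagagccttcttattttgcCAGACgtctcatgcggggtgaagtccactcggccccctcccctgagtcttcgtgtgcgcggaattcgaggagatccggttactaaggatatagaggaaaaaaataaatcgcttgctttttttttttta
SKIL (chr3:170357465-170357714, plus strand): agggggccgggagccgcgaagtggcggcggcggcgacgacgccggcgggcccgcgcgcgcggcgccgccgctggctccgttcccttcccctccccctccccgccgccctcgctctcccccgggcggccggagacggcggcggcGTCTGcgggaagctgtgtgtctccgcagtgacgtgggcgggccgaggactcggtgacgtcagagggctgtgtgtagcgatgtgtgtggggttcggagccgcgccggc
The SMAD3 window printed held no match, the SMAD7 window held 2 and the SKIL window held 1. The table lists further starts inside these genes: 2 of the 5 SMAD3 windows and 2 of the 3 SMAD7 windows held a match, and SKIL has 1 window. All 10 members matched the RefSeq promoter table. Of the windows at the start of the 10 genes, 4 held CAGAC on either strand, against 38.0% of all 35116 promoter windows of the same length. The palindrome GTCTAGAC, a stronger SMAD site whose letters contain neither CAGAC nor GTCTG, was in 0 of the 26 windows listed for these genes and in 0.182% of all windows. A match is a string of letters only, and binding was not measured. Only the 250 bases before each listed start were searched, so sites elsewhere in or around these genes were not covered.

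Values were linear intensities, and each difference given is knockdown minus control after log2(intensity + 16). For each gene the probe set with the largest average of the arrays, called the brightest here, stood for the gene. The gene was kept when that average reached 108.1, the median over probe sets, which left 12220 genes. SUN2 read 407.3 in the knockdown array and 497.7 in the control array on its brightest probe set, a log2 difference of -0.28, and all 6 of its probe sets were lower. The lowest of them differed by -0.39 and -0.36, so no SUN2 probe set was lower by 1.5-fold. Of 23 background controls, probes without a human target, 20 were lower in the knockdown array, with a median difference of -0.038. With all probe sets in 10 bins by intensity, the top bin had a median difference of 0.099, against -0.039 in bin 5. The SD of a probe set's difference around the mean of its gene, called the probe SD below, was 0.094. It was taken from probe sets past the filter, over the 5786 genes with at least 2 of them. It measures how far probe sets of 1 gene differ from each other, not variation between cultures, and such probe sets may share probes. Of the 9 colon epithelial markers, 7 were past the filter and all 7 were higher in the knockdown array, by 0.0024 to 0.34. Of all kept genes 49.8% were higher. VIL1 was below the filter, at 78.7 in the knockdown array and 86.9 in the control array, and so was LGALS4. Summed over each list, epithelial markers stood at 9395 in the knockdown array and 8069 in the control array. Fibroblast markers stood at 833.3 in the knockdown array and 868.7 in the control array. Immune markers stood at 628.1 in the knockdown array and 661.4 in the control array, and endothelial markers at 1115 in the knockdown array and 1186 in the control array. The leukocyte marker PTPRC read 49.99 in the knockdown array and 53.7 in the control array, below the filter. Other markers of these lists passed it: 3 of the 8 fibroblast, 2 of the 7 measured immune and 5 of the 8 endothelial markers. Each of those was lower in the knockdown array, as were 50.2% of all kept genes. The part of these shifts in the results below was not tested.

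The receptors and signal transducers were measured past the filter, and the ligands and feedback genes were not. TGFBR1, TGFBR2, SMAD2, SMAD3 and SMAD4 passed the filter on low values, and TGFB1, TGFB2, TGFB3, SMAD7 and SKIL fell short of it. No member differed by 1.5-fold: 0 of the 5 kept genes were that much higher, against 0.336% of all kept genes, and 0 were that much lower, against 0.0245%. Of the 5 kept genes 4 were higher in the knockdown array, where 49.8% of all kept genes were, and 1 was lower, where 50.2% were. Their median difference was 0.16, against -0.00092 over all kept genes. The brightest probe sets of SMAD2 and SMAD4 lay in the top bin, and those of TGFBR1 and SMAD3 in bin 9, whose median was 0.025. With the filter at the 75th percentile of intensity, 3 of the 4 members left were higher, with a median of 0.13. Of all genes then kept 59.7% were higher, with a median of 0.040. The member median was 0.095 with quantile normalization and 0.11 with loess, against -0.028 and -0.011 over all kept genes. Of the 16 member probe sets past the filter 11 were higher, against 51.0% of all probe sets past it. Of these 16 probe sets, 4 differed by more than 2 probe SDs, against 15.9% of all probe sets past that filter. Over all 36 member probe sets the differences ran from -0.22 to 0.28. Fewer cells of a kind and less RNA per cell cannot be told apart in such bulk RNA.

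**Figure D1:**
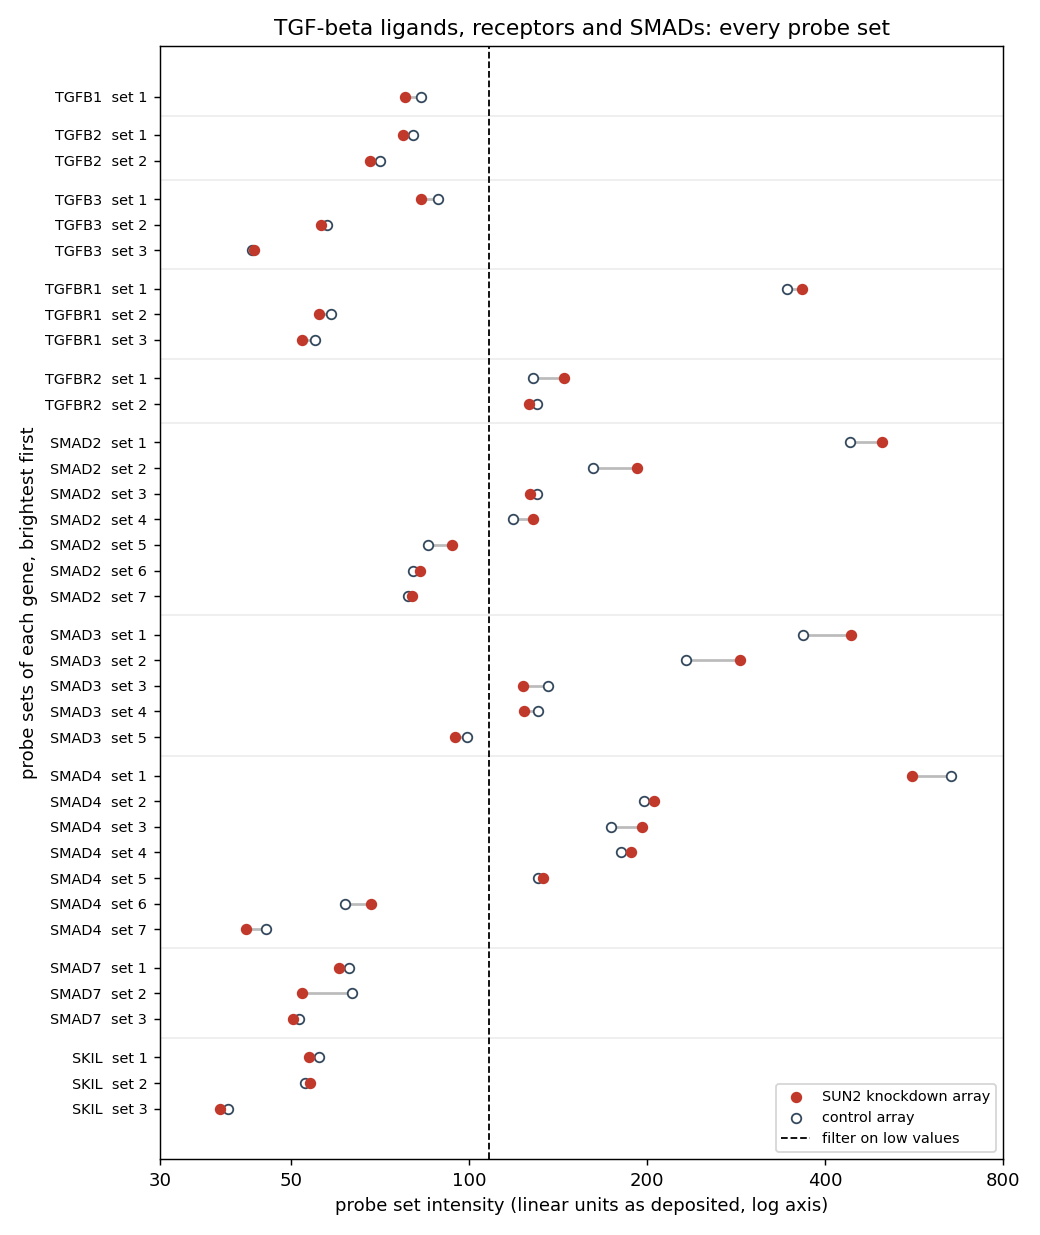
Intensity of each of the 36 probe sets (log axis) in the SUN2 knockdown array (filled) and the control array (open), grouped by gene and brightest first. The dashed line is the filter at 108.1; all 12 probe sets of the ligands, SMAD7 and SKIL lie to its left, and SMAD3, SMAD4 and SMAD2 hold the widest gaps to its right.

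The 3 ligands were all dim. TGFB1, the ligand most widely made in tissues, read 77.9 in the knockdown array and 83.0 in the control array on its only probe set. TGFB2 read 77.2 in the knockdown array and 80.3 in the control array on one probe set, and 67.8 in the knockdown array and 70.7 in the control array on the other. TGFB3 read 82.9, 56.2 and 43.2 in the knockdown array, against 88.5, 57.4 and 43.0 in the control array. In 5 of these 6 probe sets the knockdown array was lower, by at most 0.079 in log2. Below the filter 66.4% of all probe sets were lower in the knockdown array, so the ligands' direction is also that of most dim probe sets. Of the 23 background controls, between 10 and 14 were at least as bright as each ligand probe set in the control array. At this intensity the array did not show whether the ligands were expressed.

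Both receptors had a probe set past the filter with a small positive difference. TGFBR1, the type I receptor kinase, read 365.2 in the knockdown array and 344.9 in the control array on its brightest probe set, a difference of 0.079, which is under the probe SD. Its other probe sets were below the filter and lower in the knockdown array, at 55.7 against 58.5 in the control array and at 52.2 against 54.8 in the control array. TGFBR2, the type II receptor, was 1.11-fold higher on one probe set, with 144.7 in the knockdown array and 128.2 in the control array, a difference of 0.16. Its second probe set went the other way, with 126.3 in the knockdown array and 130.2 in the control array, a difference of -0.039. In the control array 9 of the 23 background controls were at least as bright as each TGFBR2 probe set. The probe sets of each receptor disagreed in direction, and their mean difference was -0.0095 for TGFBR1 and 0.059 for TGFBR2.

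SMAD2, one of the pair of SMADs that the receptors phosphorylate, was higher in the knockdown array on 6 of its 7 probe sets. The brightest read 500.0 in the knockdown array and 440.3 in the control array, a difference of 0.18 or 1.13-fold. That difference stands beside a median of 0.099 over the top bin of intensity, to which the probe set belongs. The second read 191.9 in the knockdown array and 161.9 in the control array, a difference of 0.22, where the median of its bin was -0.0083. The exception read 126.8 in the knockdown array and 130.1 in the control array. Of the other 4 probe sets 3 were below the filter, and the differences of the 4 ran from 0.018 to 0.12. Over all 7 probe sets the mean difference was 0.091 ± 0.091 (SD over probe sets, not over cultures).

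SMAD3, the other receptor-regulated SMAD, had the highest difference of any member. Its brightest probe set read 442.8 in the knockdown array and 367.1 in the control array, a difference of 0.26 or 1.20-fold. The second read 287.1 in the knockdown array and 232.9 in the control array, a difference of 0.28 or 1.22-fold. The median of their bin of intensity was 0.025, and 6.40% and 4.92% of all probe sets past the filter were at least as high as these. The 3 dimmer probe sets were lower in the knockdown array. They read 123.1, 124.0 and 94.5 in the knockdown array, against 135.8, 130.5 and 99.2 in the control array. The SMAD3 probe sets thus spanned 0.41 in log2, the widest span of any member, and their mean difference was 0.059 ± 0.20 (SD over 5 probe sets). A total of 750 of the 12220 kept genes had a higher difference than the brightest SMAD3 probe set.

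SMAD4, the common partner of SMAD2 and SMAD3, was the 1 kept member that was lower on its brightest probe set. That probe set read 560.7 in the knockdown array and 651.7 in the control array, a difference of -0.21 or 1.16-fold lower. Of all kept genes 252 had a lower difference, and 1.81% of all probe sets past the filter were at least as low. The other 4 probe sets past the filter were above their control values, with differences of 0.024 to 0.16. They read 205.3, 195.6, 187.7 and 133.0 in the knockdown array, against 197.1, 173.8, 180.4 and 130.6 in the control array. Below the filter, one probe set read 68.1 in the knockdown array and 61.7 in the control array, and the other 41.9 in the knockdown array and 45.3 in the control array. The mean over all 7 probe sets was 0.016 ± 0.12 (SD over probe sets), so the direction for the gene depended on the probe set chosen. The intensity of the brightest probe set differed by -91.0 units. Background controls whose probes hold 24 G or C bases differed by -81.1 units, and those that hold 25 by -297.2 units. In log2 these differences were -0.16 and -0.33. Controls with 12, 13 or 14 such bases differed by only -1.29 to -2.20 units. Those with 15 to 22 differed by -3.94 to -49.0 units, and those with 23 by -72.6 units. The base composition of the SMAD4 probes was not used here, and the part of background in this difference was not tested.

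**Figure D2:**
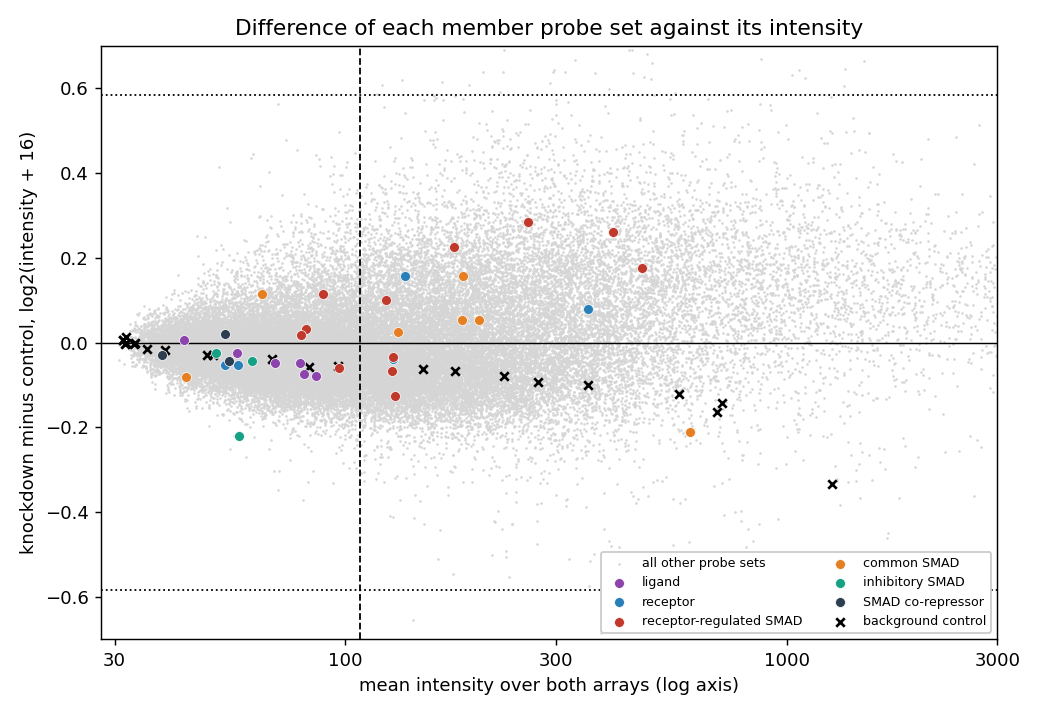
Difference between the knockdown array and the control array (log2 scale) against mean intensity (log axis) for each member probe set, coloured by role, over all other probe sets in grey and the background controls as crosses. Grey points beyond the axes are not drawn, and dotted lines mark 1.5-fold. The 2 brightest SMAD3 probe sets lie at 0.26 and 0.28, and the brightest SMAD4 probe set lies at -0.21.

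SMAD7, which blocks the receptors, and SKIL, the nuclear co-repressor also called SnoN, stayed below the filter on all 6 of their probe sets. SMAD7 was lower in the knockdown array on 3 of 3 probe sets. Its brightest read 60.3 in the knockdown array and 62.6 in the control array, and its dimmest 50.3 in the knockdown array and 51.4 in the control array. The remaining one read 52.1 in the knockdown array and 63.3 in the control array, a difference of -0.22, the lowest of all 36. Only 0.165% of all probe sets below the filter were at least as low. In the control array 12 of the 23 background controls were at least as bright as this probe set, and neither of the other SMAD7 probe sets differed by more than 0.043. SKIL read 53.5, 53.7 and 37.9 in the knockdown array, against 55.6, 52.8 and 39.1 in the control array, so that no probe set differed by more than 0.043 in log2. All 5 members below the filter were lower on their brightest probe set, as were 74.4% of the 5912 genes below the filter.

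The rest of the pathway was described with 7 lists of 85 genes in all, of which 80 were measured and 61 passed the filter. Of these 34 were higher in the knockdown array and 27 lower, with a median difference of 0.023. Beside the counts below, 49.8% of all kept genes were higher and 50.2% lower. No listed gene differed by 1.5-fold in either direction. The quartiles of all kept genes lay at -0.079 and 0.11.

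Genes of latency and activation act on the ligands before they reach a receptor. Of 6 past the filter, 2 were higher and 4 lower, with a median of -0.026. ITGAV, an integrin subunit that releases TGF-beta from its latent complex, differed by 0.19, with 1 probe set past the filter. The latent binding protein LTBP3 differed by 0.18 on its brightest probe set, and all 4 of its probe sets were higher. LTBP1, another latent binding protein, differed by -0.11, and FURIN, the protease that cleaves the ligand precursors, by -0.095. LTBP4, singled out after its values were seen, differed by -0.045 on its brightest probe set, and the lowest of its 5 probe sets past the filter stood at -0.27.

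Co-receptors and receptor regulators were higher in 6 of 9 cases, with a median of 0.060. With the filter at the 75th percentile of intensity 5 genes were left and the median was -0.012. TGFBR3, or betaglycan, which presents ligand to TGFBR2, read 220.3 in the knockdown array and 258.2 in the control array, a difference of -0.21. A second of its 3 probe sets was also lower, and the highest stood at 0.016. HGS, an endosomal sorting protein, differed by -0.11. The deubiquitinase USP15 differed by 0.21 and the receptor-associated protein STRAP by 0.20, and both had 2 of 2 probe sets past the filter higher.

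In the activin branch, which also uses SMAD2 and SMAD3, 5 of 8 genes were higher, with a median of 0.019. It turned to -0.0093 with quantile normalization and to -0.036 with the mean of all probe sets. ACVR2A, an activin type II receptor, read 225.8 in the knockdown array and 197.5 in the control array, a difference of 0.18, and its other probe set past the filter differed by 0.19. ACVR1B, the type I receptor, differed by 0.080 and its other probe set past the filter by -0.12. FST, which encodes the activin antagonist follistatin, read 215.3 in the knockdown array and 248.0 in the control array, a difference of -0.19. The ligand NODAL differed by -0.13.

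SMAD co-repressors and turnover genes were higher in 9 of 14 cases, with a median of 0.040. That median turned to -0.032 with quantile normalization, to -0.020 with loess and to -0.030 with the _x_at and _s_at classes left out. SKI, the co-repressor related to SKIL, read 915.8 in the knockdown array and 724.6 in the control array, a difference of 0.33. Of its 4 probe sets past the filter 3 were higher and the lowest stood at -0.057. The co-activator CREBBP differed by 0.25, with 4 probe sets past the filter from -0.068 to 0.37. The ubiquitin ligases SMURF2 and SMURF1, which target receptors and SMADs for degradation, differed by -0.15 and -0.12. SMURF2 read 1118 in the knockdown array and 1241 in the control array, and both of its probe sets past the filter were lower.

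Genes known to respond to TGF-beta were lower in 11 of 15 cases, with a median of -0.053. MYC, a growth-promoting factor that TGF-beta represses, had the highest difference of any listed gene, at 898.2 in the knockdown array and 641.5 in the control array, 0.48 in log2 on 1 probe set. CDKN1A, a cell cycle inhibitor that TGF-beta and p53 both induce, read 1263 in the knockdown array and 980.8 in the control array. It differed by 0.36 and 0.47 on its 2 probe sets. ANGPTL4, a secreted regulator of lipoprotein lipase, differed by -0.20 and the transcription factor BHLHE40 by -0.19, each on 1 probe set. The list mixes induced and repressed genes, so its median gives no direction for the pathway. With the filter at the 75th percentile of intensity 7 genes of the list were left and the median was 0.040.

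In the list of signalling without SMADs, 6 of 7 genes were higher, with a median of 0.098. Quantile normalization lowered that median to 0.022 and loess to 0.026. The top bin of intensity over all probe sets had a median of 0.099. TAB2, an adaptor of the kinase encoded by MAP3K7, differed by 0.21 on its brightest probe set and by -0.10 on the other past the filter. MAP3K7 itself differed by 0.13. TRAF6, a ubiquitin ligase that TGFBR1 can engage, differed by -0.0037 and TAB1 by 0.0035. With the _x_at and _s_at classes left out, 4 genes of this list were left and the median was -0.00012. Of the other SMADs, the BMP transducers SMAD1 and SMAD5 differed by 0.22 and 0.12, and all 4 SMAD5 probe sets past the filter were higher. The inhibitory SMAD6 differed by -0.065, and SMAD9 was below the filter.

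**Figure D3:**
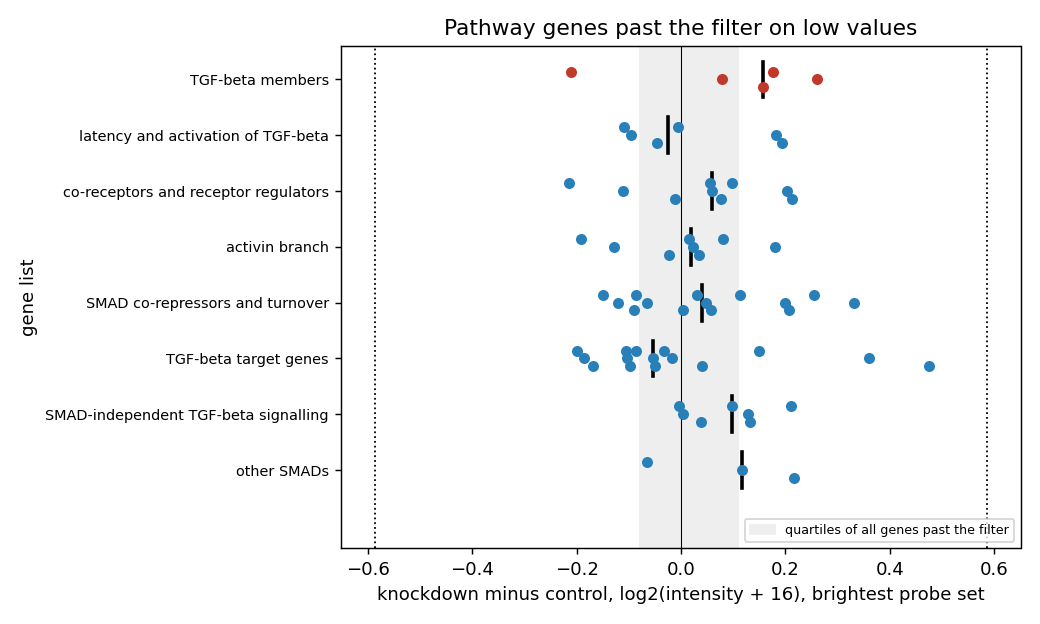
Difference between the knockdown array and the control array (log2 scale, brightest probe set) for each gene past the filter in the 5 kept members (top row) and in the 7 pathway lists, with list medians as black bars, 1.5-fold as dotted lines and the span between the quartiles of all kept genes shaded. The kept members have a median of 0.16, and MYC at 0.48 and CDKN1A at 0.36 are the rightmost points of the target genes.

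Averaging the probe sets of a gene, or leaving classes of them out, changed the direction of 2 members. Single probe sets went both ways in TGFB3, TGFBR1, TGFBR2, SMAD2, SMAD3, SMAD4 and SKIL. Centring, quantile normalization, loess, normexp and the other pseudocounts left the direction of each of the 10 members as it was. With quantile normalization SMAD4 moved to -0.31 and SMAD3 to 0.20. With the mean of all probe sets SMAD4 moved to 0.016, SMAD3 to 0.059 and TGFBR1 to -0.0095, so SMAD4 and TGFBR1 changed sign. Without the _x_at and _s_at classes, which can hold probes that match several transcripts, TGFBR1 stood at -0.053 on a probe set below the filter. TGFBR2 had no probe set left.

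**Figure D4:**
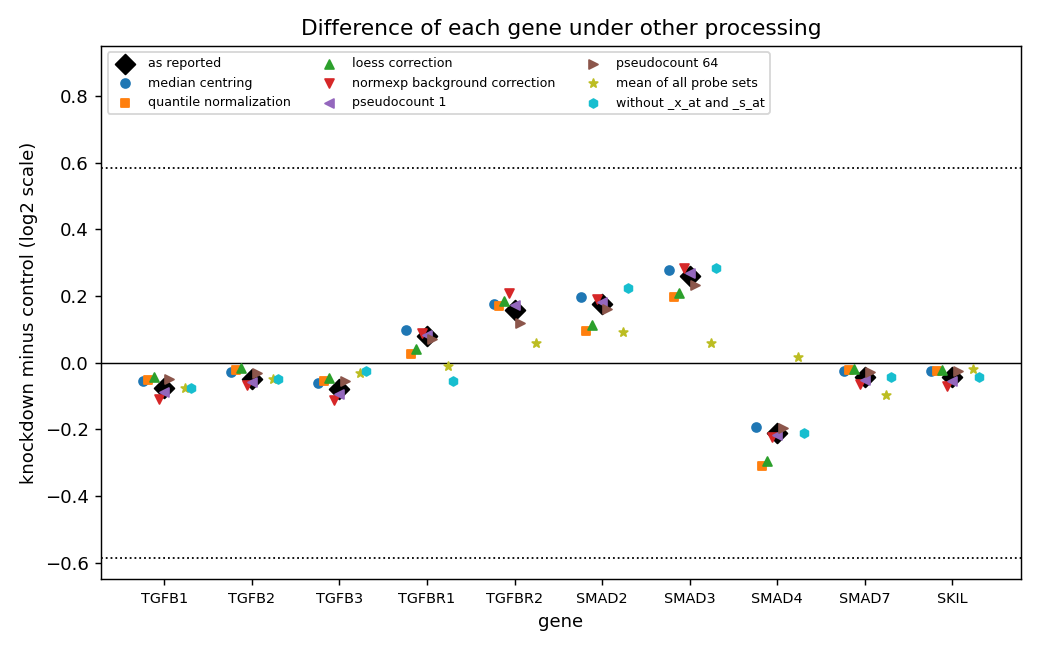
Difference between the knockdown array and the control array (log2 scale) for each of the 10 genes as reported (diamonds) and under 8 other ways of processing. No point reaches 1.5-fold (dotted lines); SMAD2 and SMAD3 stay above 0 in each, and SMAD4 lies between -0.31 and 0.016.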

How the data were processed

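Biotin-labelled cRNA from total RNA was hybridized to 1 array per group, 2 arrays in all. The authors deposited linear intensities, 1 per probe set. MAS5 and RMA appear in the submitters' processing notes without a stated use, and how the arrays were scaled to each other was not given in the sources used. Of 49293 probe sets besides 102 controls, 44988 had 1 gene symbol in the platform annotation, and 44961 of those were renamed by Entrez ID from RefSeq GRCh38.p14.

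Intensities were log2-transformed after adding 16. The brightest probe set stood for its gene, and genes under the median probe set were left out. With no replicates there was no test, and the number of arrays limits the precision. Differences past 1.5-fold were counted. Named genes are the members, SUN2, and the 2 highest and 2 lowest of each list past the filter. Markers below the filter and SMAD9 are named as such, and LTBP4 was named after its values were seen. Members and lists were chosen with earlier results of these data known. Alternatives were median centring, quantile normalization, loess with a span of 0.3 and normexp in limma 3.58.1 (R 4.3.3), pseudocounts of 1 and 64, no filter or the 75th percentile, the mean of all probe sets, and leaving out _x_at and _s_at. The gene step was tested on simulated data.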

Additional observations from a re-analysis of the deposited data

How the results depend on the processing

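No paired analysis was possible because there was 1 array per group. For the same reason none could be left out in turn. No member passed 1.5-fold in either direction under any of the 10 alternatives. Without the filter on low values all 10 members entered and their median difference was -0.043, with 4 higher. Over all 18132 genes the median was then -0.021, and 41.9% were higher. With the mean of all probe sets the median of the kept members was 0.059, against -0.0073 over all kept genes. Without the _x_at and _s_at classes 3 members were left, of which 2 were higher, against 46.8% of all genes left. The SMAD7 probe set with the lowest difference, -0.22 as reported, stood at -0.41 with normexp and at -0.13 with a pseudocount of 64, so its size depends on the treatment of background. All 12 probe sets of the ligands, SMAD7 and SKIL lie where background limits what the arrays can show. Of the 24 probe sets of the receptors, SMAD2, SMAD3 and SMAD4, 8 were below the filter too. In the control array 9 of the 23 background controls were at least as bright as the dimmest SMAD2, SMAD3 and SMAD4 probe sets past it.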
